A study of Homo sapiens with 4 samples.

Results

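The genes of MHC class I antigen presentation were followed through the accessible chromatin of HK1 nasopharyngeal carcinoma cells: the class I heavy chains HLA-B, HLA-C, HLA-E and HLA-F, the light chain B2M, the peptide loading genes TAP1, TAP2 and TAPBP, and NLRC5, the transactivator of this set. Their peaks were those overlapping the gene body or the 10 kb upstream of it. The 9 genes held 81 of the 250225 peaks in 4 lists, which merged into 23 of 93211 regions. The largest difference with interferon-γ (IFN-γ) among the regions measured in every library lay upstream of NLRC5, at -3765 bp from its transcription start site (TSS), where accessibility was 2.02 times as high with IFN-γ in wild-type cells and 0.570 times as high in cells without FLI1. By significance (−log10 q), that peak ranked low in untreated wild-type cells (percentile 27.0 of the list) and in treated knockout cells (percentile 14.3). With IFN-γ, 7 of 22 regions were lower by 1.5-fold in the knockout than in wild-type cells and 0 were higher, against 17.5% and 15.2% of all regions. Relative to the median of each chromosome, 5 were lower and 2 were higher, against 16.5% and 15.4% of all regions.

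A class I molecule is a heavy chain paired with β2-microglobulin, the product of B2M, and it carries a short peptide to the cell surface for inspection by CD8 T cells. Peptides cut by the proteasome are pumped into the endoplasmic reticulum by the TAP1-TAP2 transporter, and tapasin, the product of TAPBP, holds empty class I molecules beside it. IFN-γ is a classical inducer of the whole set. NLRC5 does not bind DNA by itself and acts through an RFX, CREB/ATF and NF-Y assembly on class I promoters, whose sites include a CRE-like element and an inverted CCAAT box.

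Promoters bring this machinery together, so the 200 bases before the RefSeq start of 5 members are shown. The first 3 are the class I heavy chain promoters, which can be compared with each other, and B2M and TAP1 follow as promoters with a match to the IRF motif. Sequences are from RefSeq on GRCh38.p14, 5′ to 3′ on the strand of the gene, and capitals mark the matches to any of the 6 motifs searched, which are spelled out with the motif counts. RefSeq promoters were matched for 7 of the 9 members, all but HLA-E and NLRC5.
HLA-B (chr6:31357180-31357379, minus strand): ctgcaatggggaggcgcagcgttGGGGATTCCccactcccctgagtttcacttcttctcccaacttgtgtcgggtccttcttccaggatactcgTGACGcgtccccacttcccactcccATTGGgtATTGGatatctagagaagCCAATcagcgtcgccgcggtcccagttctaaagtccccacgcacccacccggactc
HLA-C (chr6:31272093-31272292, minus strand): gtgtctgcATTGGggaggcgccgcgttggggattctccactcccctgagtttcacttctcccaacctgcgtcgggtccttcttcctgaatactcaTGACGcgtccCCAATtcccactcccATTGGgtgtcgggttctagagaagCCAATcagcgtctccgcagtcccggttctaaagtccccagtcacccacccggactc
HLA-F (chr6:29723234-29723433, plus strand): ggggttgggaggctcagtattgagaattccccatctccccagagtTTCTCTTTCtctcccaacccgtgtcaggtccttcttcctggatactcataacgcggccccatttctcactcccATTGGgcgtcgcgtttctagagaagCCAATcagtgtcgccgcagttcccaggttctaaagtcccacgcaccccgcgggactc
B2M (chr15:44711317-44711516, plus strand): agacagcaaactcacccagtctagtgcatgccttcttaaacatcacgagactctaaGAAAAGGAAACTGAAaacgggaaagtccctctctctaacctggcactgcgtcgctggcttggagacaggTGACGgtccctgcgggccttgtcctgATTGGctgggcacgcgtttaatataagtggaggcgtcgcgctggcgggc
TAP1 (chr6:32853705-32853904, minus strand): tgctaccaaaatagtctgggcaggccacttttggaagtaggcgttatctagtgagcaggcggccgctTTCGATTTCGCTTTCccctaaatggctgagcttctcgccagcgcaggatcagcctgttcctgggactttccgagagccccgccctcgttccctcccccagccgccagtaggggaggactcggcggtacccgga

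The HLA-B and HLA-C stretches were identical at 179 of 196 aligned bases (91.3%). HLA-F was identical to HLA-B at 164 of 197 (83.2%) and to HLA-C at 163 of 193 (84.5%). All 3 carried a CCAAT box in the direction of the gene, at -56 bp in HLA-B and HLA-C and at -57 bp in HLA-F. All 3 also carried it inverted, as ATTGG, at -81 and -74 bp in HLA-B, -192 and -80 bp in HLA-C and -82 bp in HLA-F. HLA-C had a further CCAAT match in the direction of the gene at -95 bp. TGACG, the core of a cyclic AMP response element, lay at -106 bp in HLA-B and -105 bp in HLA-C and was not matched in the HLA-F stretch. The IRF motif was matched in HLA-F at -155 bp, in B2M at -144 and -138 bp, and in TAP1 at -133 and -127 bp, and the adjacent matches in B2M and in TAP1 overlap each other.

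HK1 is an established nasopharyngeal carcinoma line, and the cells were wild type (WT) or carried a knockout of the ETS transcription factor FLI1 made with a guide RNA (sgFLI1, FLI1-KO), and were left untreated or treated with IFN-γ. The labels give no dose or duration (the study's text gives a treatment of a day), and they do not say how many clones make up the knockout. Each of the 4 groups (WT, sgFLI1 and, with IFN-γ, WT-IFN-γ and sgFLI1-IFN-γ) had 1 library of ATAC-seq, in which a transposase cuts open DNA. Without a second library in any group the spread between replicates is unknown, so no test was run and the 95% intervals cover counting error within a library only. A peak list shows no genotype, so the knockout of FLI1 could not be checked here.

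WT cells had 59629 peaks untreated and 67470 with IFN-γ, and sgFLI1 cells had 63203 and 59923. The number of tags over each summit was recovered from its deposited fold and p-value, and was divided by the tag density of the library (6.86 to 8.84 tags per kb of genome) to give a level. The level is the height at 1 base and does not grow with the length of a peak or gene. Of 6 epithelial marker genes, KRT5, KRT8 and EPCAM had a promoter peak in every list and CDH1 in every list but sgFLI1-IFN-γ, and KRT14 and TP63 had none. Of 4 blood and endothelial markers, CD14 had a promoter peak in each list, with 14 to 32 tags, and PTPRC, CD3E and PECAM1 had none. Reads of low mapping quality had been removed by the authors, and class I heavy chain genes are near copies of each other and differ between people, so that levels at the HLA genes are less certain than at the others. The part of read mapping in these values was not tested.

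WT and sgFLI1 each had 19 peaks at the 9 genes, WT-IFN-γ had 21 and sgFLI1-IFN-γ had 22. Of the 23 regions, 18 were in all 4 lists, against 43.9% of all regions in the series. The other 5 were a region in intron 38 of NLRC5 listed in WT alone, the HLA-F promoter in WT-IFN-γ alone, a region in intron 2 of NLRC5 in sgFLI1-IFN-γ alone, a region in the last exon of TAP2 in both treated lists, and the HLA-C promoter in every list but WT. A promoter region, with a peak within 1 kb of the TSS, was found for 8 of the 9 genes, and the exception was HLA-B.

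**Figure D1:**
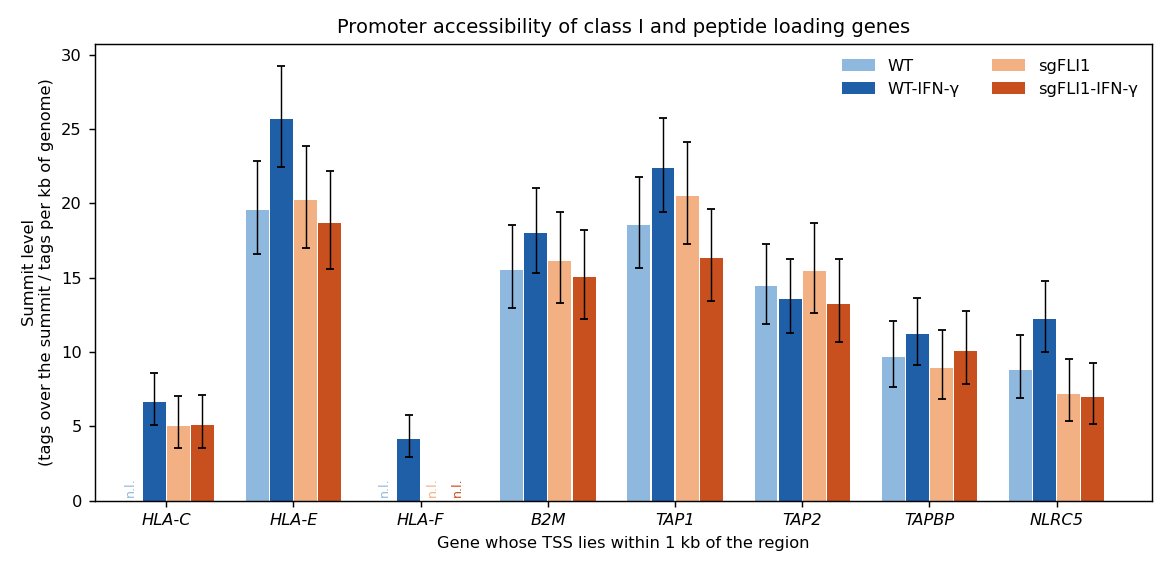
Summit level at the promoters of 8 genes in the 4 libraries, in tags over the summit per tag density; bars are single libraries, lines are exact Poisson 95% intervals of counting error, and n.l. marks a library whose list holds no peak there. HLA-F is listed in WT-IFN-γ alone and HLA-C in every list but WT, and NLRC5 stands at 12.2 in WT-IFN-γ and at 7.0 to 8.83 in the others.

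In WT-IFN-γ the promoter levels ran from HLA-E (25.7) through TAP1 (22.4), B2M (18), TAP2 (13.6), NLRC5 (12.2) and TAPBP (11.2) to HLA-C (6.68) and HLA-F (4.19). Neighbours in this order had overlapping intervals except TAPBP (9.10 to 13.6) and HLA-C (5.08 to 8.61). HLA-E and TAP1 held the highest 2 promoter levels in all 4 libraries, which the plot of promoter levels shows, and HLA-C the lowest listed one in both knockout libraries, whose lists hold no HLA-F promoter.

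Of the heavy chain genes, HLA-E, which presents leader peptides of other class I chains to NK cells, had the most accessible promoter. Its region at -69 bp (chr6:30489220-30490262, GRCh38) held 157 tags in WT and 227 with IFN-γ, and 140 and 128 in the knockout. The WT-IFN-γ library stood above the other 3, and its level was 1.32 times that of WT (interval 1.07 to 1.62). The sgFLI1-IFN-γ level was 0.924 times that of sgFLI1 (0.721 to 1.18). A weaker region at -7297 bp held 41 and 49 tags in WT and 26 and 44 in the knockout, and there the knockout had the larger ratio, 1.71 (1.03 to 2.89) against 1.09 (0.704 to 1.69) in WT.

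HLA-C, a classical heavy chain that also serves as a ligand of NK cell receptors, had a single region, at -80 bp (chr6:31272077-31272638). It held 59 tags in treated WT, 35 in the knockout both without and with IFN-γ, and was not listed in WT, where the nearest peak was 21296 bp from the TSS. A summit of 11 tags would have passed the p-value limit of the WT list at the background of the treated cells. By that limit alone, the level was at least 4.88-fold higher in WT-IFN-γ than in WT. By the same reasoning it was at least 4.06-fold higher in sgFLI1 than in WT without any treatment. These bounds leave out peak width. The shortest peak listed in WT was 274 bp, and the HLA-C peaks of sgFLI1 and sgFLI1-IFN-γ were 274 and 294 bp wide. A narrower WT peak with more tags could be unlisted, and the bounds would not hold for it. The treated and untreated knockout did not differ beyond counting error (ratio 1.01, 0.614 to 1.66). The peak was thus missing from the untreated WT list alone.

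HLA-F, a non-classical heavy chain with limited surface expression, had a promoter region at -104 bp (chr6:29723114-29723578) in WT-IFN-γ alone, with 37 tags. By the p-value limit alone, the level there was at least 3.06-fold higher than in WT (limit of 11 tags). That of sgFLI1-IFN-γ was at least 3.19-fold lower than that of WT-IFN-γ (limit of 9 tags). Peak width was not considered in either bound. A second region of HLA-F, at 14806 bp near the end of its longest transcripts, was in all 4 lists with 37 tags in WT and 31 with IFN-γ, and 22 and 15 in the knockout. It went the other way, with the highest level in WT (4.60) and a WT-IFN-γ to WT ratio of 0.763 (0.457 to 1.26). The knockout to WT ratio there was 0.690 (0.388 to 1.20) untreated and 0.623 (0.313 to 1.19) treated, and both intervals include 1.

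HLA-B, a classical heavy chain, had no peak within 1 kb of the TSS of its main transcript in any list. The nearest peaks lay 9506 to 9648 bp away in 3 lists and 3913 bp away in WT-IFN-γ, the last a peak of 11 tags downstream of the gene that no window here takes in. The region at -9929 bp (chr6:31366685-31367484), at the start of the longest annotated HLA-B transcript, held 56 tags in WT and 84 with IFN-γ, and 64 and 45 in the knockout. Its ratio with IFN-γ was 1.37 (0.962 to 1.95) in WT and 0.711 (0.474 to 1.06) in the knockout. A region at -17097 bp held 28 and 33 tags in WT and 21 and 16 in the knockout, and the treated knockout stood 0.625 times as high as treated WT, with an interval (0.321 to 1.17) that includes 1.

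**Figure D2:**
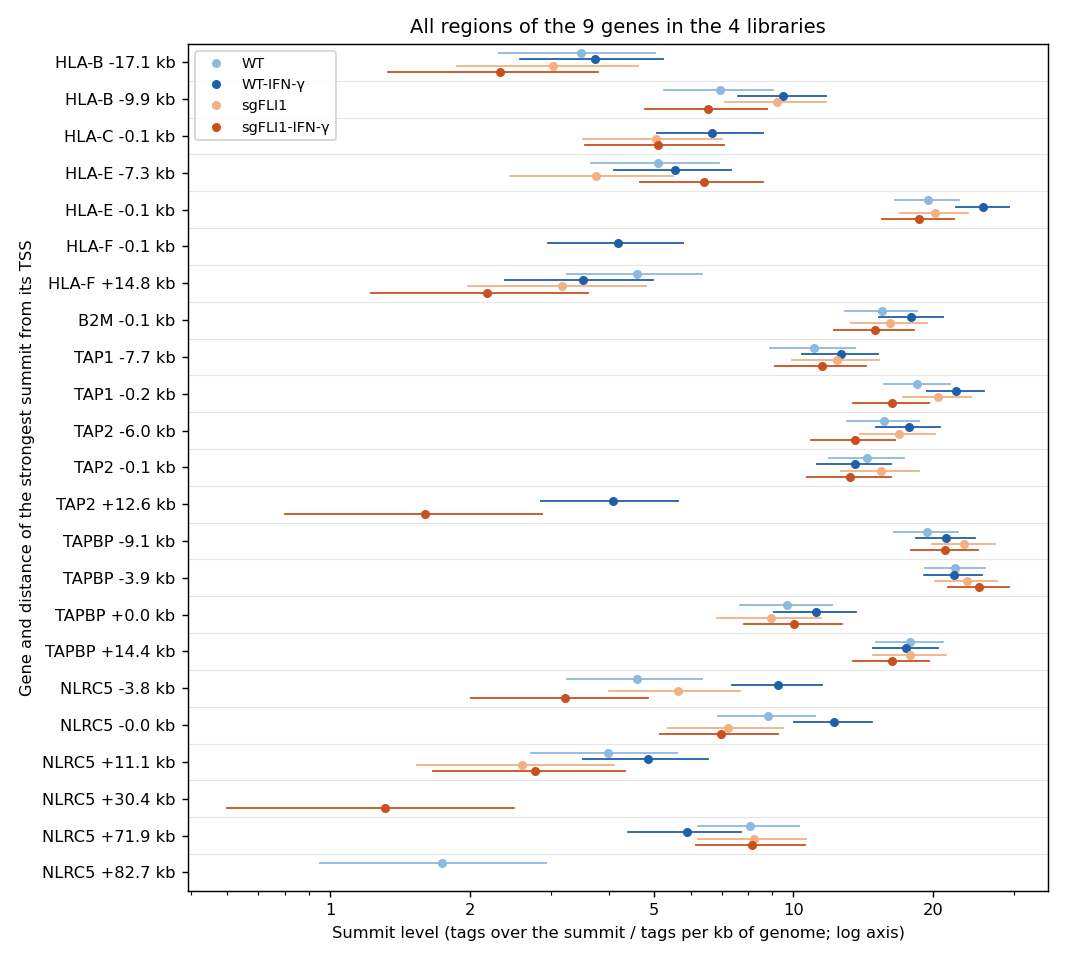
Summit level on a log axis for all 23 regions, named by gene and by the distance of the strongest summit from the TSS, with 1 point for each library that lists the region and exact Poisson 95% intervals of counting error. Among regions in all 4 lists, the libraries spread most at NLRC5 -3.8 kb, from 3.21 in sgFLI1-IFN-γ to 9.28 in WT-IFN-γ.

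B2M, on chromosome 15, had 1 region over its promoter (chr15:44710790-44712810), which also covers the TSS of PATL2 on the other strand. It held 125 tags in WT and 159 with IFN-γ, and 112 and 103 in the knockout. The levels, 15.5 and 18 in WT and 16.2 and 15 in the knockout, were nearly equal in untreated cells, and WT-IFN-γ was the highest. The ratio with IFN-γ was 1.16 (0.910 to 1.48) in WT and 0.929 (0.704 to 1.23) in the knockout, and neither differed from 1 beyond counting error.

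TAP1 and TAP2, the subunits of the peptide transporter, lie beside the immunoproteasome genes PSMB8 and PSMB9 on chromosome 6, and some of their regions serve both. The region at -186 bp of TAP1 (chr6:32853116-32854679) covers the starts of TAP1 and of PSMB9, which are transcribed away from each other. It held 149 tags in WT and 198 with IFN-γ, and 142 and 112 in the knockout, so that the treated libraries were the highest and the lowest of the 4. The ratio with IFN-γ was 1.21 (0.973 to 1.51) in WT and 0.797 (0.617 to 1.03) in the knockout, and treated knockout cells stood at 0.729 (0.573 to 0.923) of treated WT cells. The region over the PSMB8 start, upstream of TAP2 at -5975 bp, had the same order, with 126 and 157 tags in WT and 117 and 93 in the knockout. A region at -7699 bp of TAP1 held 89 and 112 tags in WT and 86 and 79 in the knockout, and its 4 levels, 11.1 to 12.7, lay within each other's intervals.

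The TAP2 promoter (chr6:32837715-32839201) moved little, with 116 tags in WT and 120 with IFN-γ, 107 and 91 in the knockout, and levels of 13.3 to 15.4. Inside TAP2, in the untranslated part of exon 12 at 12602 bp from the TSS (chr6:32826024-32827321), a region was listed in both treated libraries and in neither untreated one. It held 36 tags in WT-IFN-γ and 11 in sgFLI1-IFN-γ. By the p-value limit alone, the treated level was at least 2.18-fold higher than the untreated one in WT and at least 1.59-fold higher in the knockout. The knockout bound sets 11 tags (5.49 to 19.7) against a limit of 7, so counting error covers no difference. The sgFLI1-IFN-γ peak was 268 bp wide and the shortest peak listed in sgFLI1 259 bp, so width could also keep it off that list. The treated knockout stood at 0.394 (0.181 to 0.790) of treated WT.

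**Figure D3:**
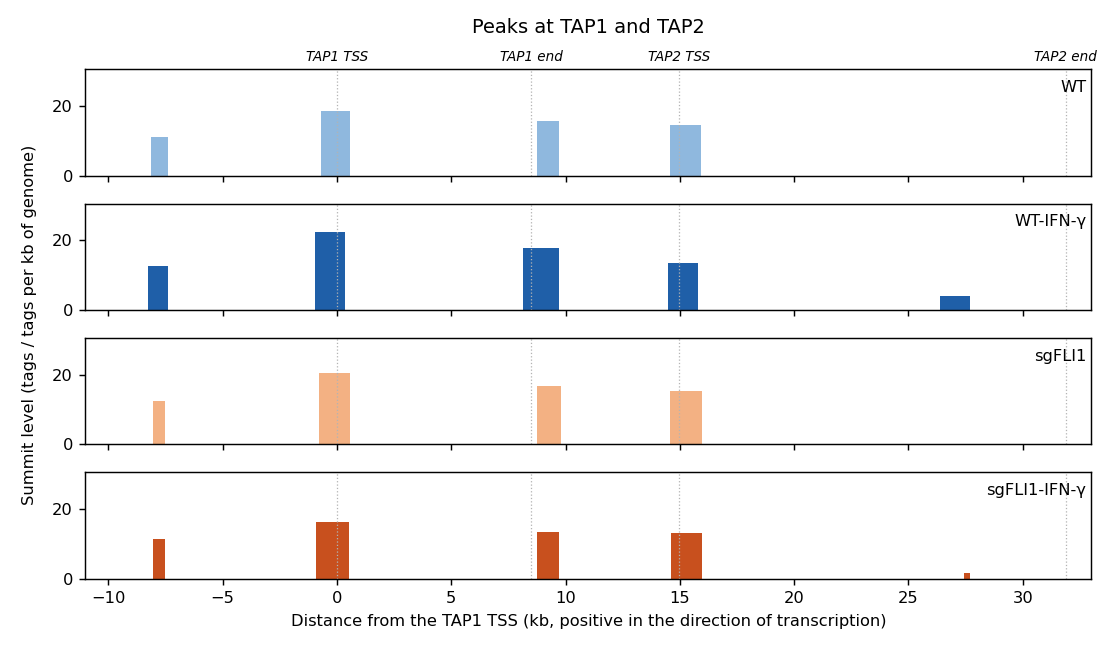
Peaks of TAP1 and TAP2 in the 4 libraries by distance from the TAP1 TSS in kb, with the bar width as the peak and the bar height as the summit level; dotted lines mark starts and ends of the genes. The bars at the TAP2 end, 4.07 high in WT-IFN-γ and 1.60 in sgFLI1-IFN-γ, have no counterpart in the untreated libraries, and the other 4 positions are occupied in all of them.

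TAPBP, which encodes tapasin, had 4 regions in a gene-dense stretch, and 3 of them cover starts of its neighbours DAXX, ZBTB22 and RGL2. Its own promoter region (chr6:33313446-33314708) held 78 tags in WT and 99 with IFN-γ, and 62 and 69 in the knockout. The local background there was high, 21.0 to 28.9 tags, and by −log10 q the peak reached only the 43.6th to 64.5th percentile of its list, where that of TAP1 reached the 96.9th to 99.7th. The ratio with IFN-γ was above 1 in both genotypes, 1.16 (0.85 to 1.57) in WT and 1.12 (0.786 to 1.61) in the knockout. None of the 4 TAPBP regions passed 1.5-fold in any comparison, and over the DAXX, ZBTB22 and RGL2 starts the ratios with IFN-γ were 0.911 to 1.10.

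NLRC5, on chromosome 16, had the most regions, 6, and the largest differences among regions in all 4 lists. Its promoter region at -25 bp (chr16:56988543-56990189) held 71 tags in WT and 108 with IFN-γ, and 50 and 48 in the knockout. WT-IFN-γ was the highest and both knockout libraries were below both WT libraries. Without treatment the knockout to WT ratio was 0.817 (0.557 to 1.19), an interval that includes 1. The ratio with IFN-γ was 1.38 (1.02 to 1.9) in WT and 0.97 (0.639 to 1.47) in the knockout, and the treated knockout stood at 0.573 (0.399 to 0.812) of treated WT.

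The region at -3765 bp (chr16:56985504-56986218) lies upstream of NLRC5 and overlaps no protein-coding gene body. It held 37 tags in WT and 82 with IFN-γ, levels of 4.60 and 9.28, and 39 and 22 tags in the knockout, levels of 5.63 and 3.21. The untreated libraries were close, the treated WT library was the highest and the treated knockout the lowest. The ratio with IFN-γ was 2.02 (1.35 to 3.06) in WT and 0.570 (0.322 to 0.985) in the knockout, and treated knockout cells stood at 0.346 (0.206 to 0.559) of treated WT cells. The local background was 11.3 and 16.9 tags in WT without and with IFN-γ, and 6.72 and 7.23 tags in the knockout, so it moved with genotype and, in WT, with treatment. With it subtracted, the ratios with IFN-γ were 2.31 and 0.463.

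**Figure D4:**
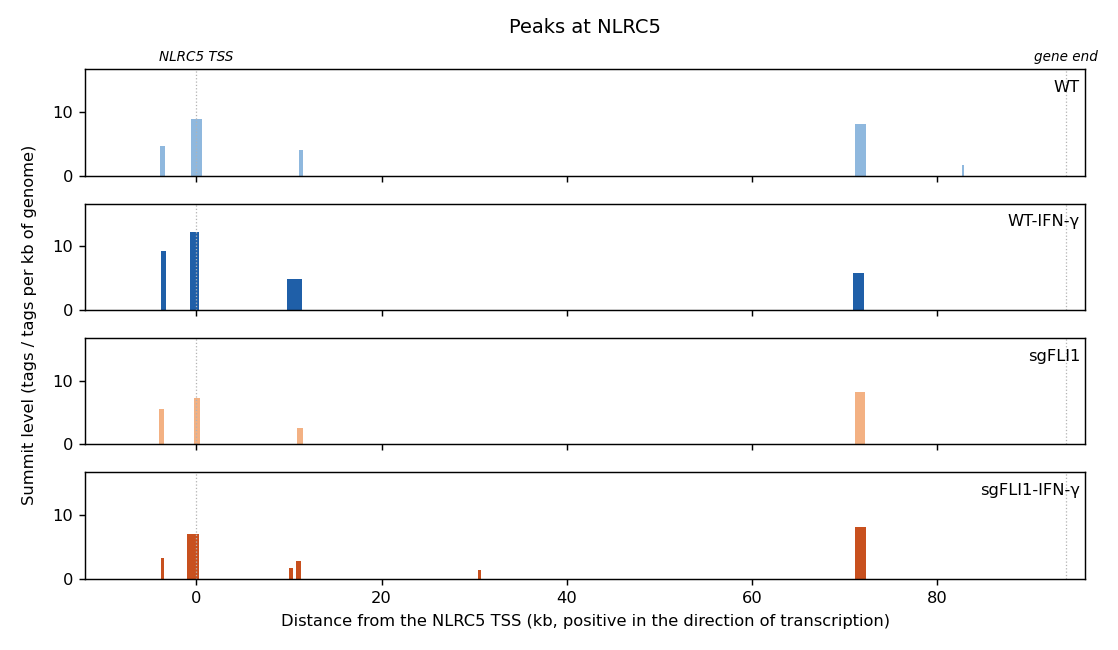
Peaks of NLRC5 in the 4 libraries by distance from its TSS in kb, with the bar width as the peak and the bar height as the summit level; dotted lines mark the TSS and the end of the gene. The 2 bars nearest the TSS reach 9.28 and 12.2 in WT-IFN-γ and 3.21 and 7.0 in sgFLI1-IFN-γ, whereas the bar at 71.9 kb is lowest in WT-IFN-γ at 5.88.

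Within NLRC5, a region in intron 1 at 11130 bp held 32 tags in WT and 43 with IFN-γ, and 18 and 19 in the knockout. It was lower in the knockout with and without treatment, at ratios of 0.569 (0.313 to 0.998) and 0.653 (0.345 to 1.20). A region over coding exon 31, at 71947 bp, held 65 tags in WT and 52 with IFN-γ, and 57 and 56 in the knockout, and was lowest in WT-IFN-γ, where the level was 5.88 against 8.08 to 8.22 in the others. The regions of intron 38 (14 tags, WT) and intron 2 (9 tags, sgFLI1-IFN-γ) were near the smallest summit that a list could hold.

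Chromosome 16 as a whole was lower in the knockout, which touches each comparison of NLRC5 between genotypes. Over regions in both libraries, the median ratio of the knockout to WT on chromosome 16 was 0.848 untreated and 0.816 treated, against 1.04 and 0.978 on chromosome 6 and 1.01 and 0.966 on chromosome 15. Relative to the chromosome 16 median, the treated knockout to WT ratio was 0.424 at -3765 bp, 0.702 at the promoter and 0.698 at 11130 bp, so that at the last 2 it no longer passed 1.5-fold, and at 71947 bp it was 1.7. The untreated ratio became 0.769 at 11130 bp and 0.963 at the promoter. The ratios with IFN-γ within a genotype hardly changed, with 2.13 in WT and 0.621 in the knockout at -3765 bp. The part of the chromosome in the genotype difference was not tested beyond this.

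With IFN-γ in WT cells, 4 of 22 regions were higher by 1.5-fold and 1 was lower, against 13.1% and 12.3% of all regions tested. The 4 were NLRC5 at -3765 bp, the HLA-C and HLA-F promoters and the last exon of TAP2, and the lower one was the intron 38 region of NLRC5. The share higher, 18.2%, is near the background, and 3 of the 4 rest on a peak missing from the WT list. Among the 18 regions in both lists, 13 had a ratio above 1, against 40.6% of all regions, and the median was 1.14 against 0.953.

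With IFN-γ in knockout cells, 2 of 21 regions were higher and 1 was lower by 1.5-fold, against 7.18% and 12.7% of all regions. The higher ones were HLA-E at -7297 bp and the last exon of TAP2, and the lower one was NLRC5 at -3765 bp. The TAP2 call sets 11 tags against a limit of 7, which is within counting error. The median over 19 regions in both lists was 0.924 and that of all regions 0.909, so the members stood where the whole library stood. A ratio above 1 was found for 5 of the 19, against 33.6% of all regions. All regions were shifted by -0.14 on the log2 scale in this comparison.

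Without treatment, the knockout differed from WT by 1.5-fold at 2 of 20 regions, higher at the HLA-C promoter and lower at 11130 bp of NLRC5, against 18.7% of all regions higher and 14% lower. The median ratio of 18 regions was 1.04, and that of all regions 1.03. With treatment, 0 of 22 regions were higher and 7 were lower, against 15.2% and 17.5% of all regions. The lower ones lay at 4 genes and 3 of them at NLRC5, so they are not independent of each other: NLRC5 at -3765, -25 and 11130 bp, both regions of HLA-F, HLA-B at -17097 bp and the last exon of TAP2. At HLA-F 14806 bp and HLA-B -17097 bp the counting interval includes 1, and HLA-F 14806 bp stood at 0.690 without treatment too. The median ratio of 20 regions was 0.764 against 0.985 for all regions, and 3 of 20 were above 1 against 48.1%. Relative to the chromosome medians 5 were lower and 2 higher, against 16.5% and 15.4% of all regions. The 2 higher were NLRC5 at 71947 bp and in intron 2.

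The comparisons with IFN-γ in WT and in the knockout share no library, so their ratios were divided to give the difference of the response between genotypes. Among the 18 regions in all 4 lists, the WT ratio was larger than the knockout ratio for 15, against 57.9% of all 40876 such regions, and the median was 1.22 against 1.06. It was larger by 1.5-fold for 3, or 16.7%, against 12.9% of all, and smaller by 1.5-fold for 1, HLA-E at -7297 bp, against 7.89%. For 10 of the 18 the level was higher with IFN-γ in WT and lower in the knockout, a pattern found in 26.7% of all regions. With both ratios taken relative to the median of all 40876 regions (0.953 in WT and 0.906 in the knockout), this held for 5 of the 18, against 24.8% of all, so the count of opposite directions depends on the scaling. The WT ratio was then still the larger for 14 of the 18.

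The counting interval of this quotient lay above 1 for 4 regions and below 1 for 0. It was 3.54 (1.85 to 6.78) for NLRC5 at -3765 bp, which put that region at the 99.8th percentile of all regions. That region is named as the largest of the 18, and its interval takes no account of this choice. The quotient was 1.92 (1.15 to 3.20) for HLA-B at -9929 bp, 1.52 (1.09 to 2.1) for the TAP1 and PSMB9 promoter and 1.42 (1.04 to 1.95) for the HLA-E promoter. At the B2M promoter it was 1.25 (0.873 to 1.78) and at the NLRC5 promoter 1.43 (0.869 to 2.34), and both intervals include 1.

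**Figure D5:**
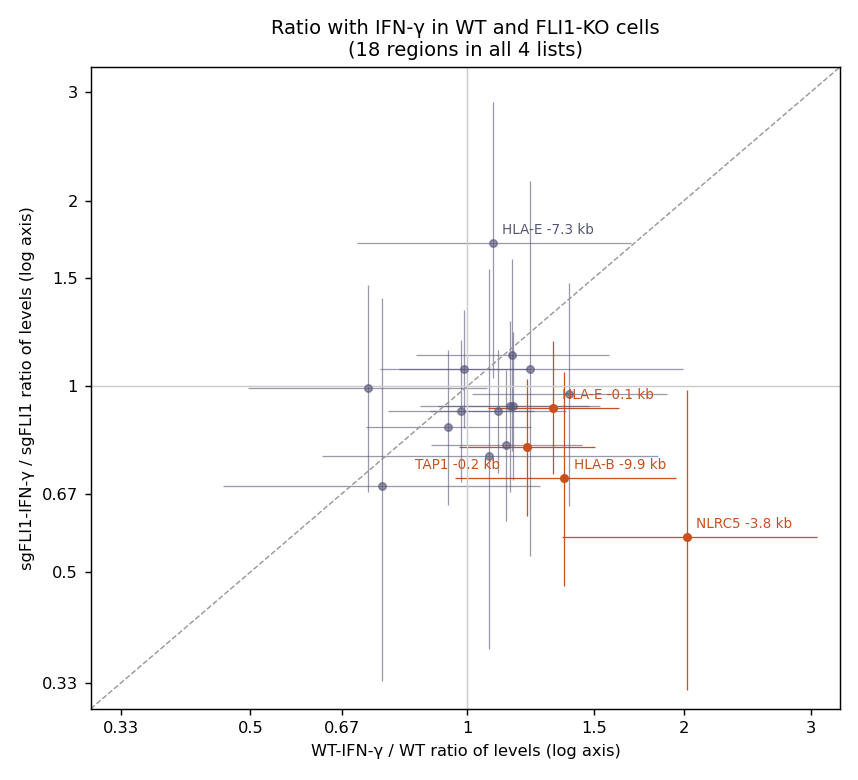
Ratio of levels with and without IFN-γ in WT (x axis) and in FLI1-KO cells (y axis), both on log axes, for the 18 regions in all 4 lists; lines are 95% intervals of counting error and the dashed line marks equal ratios. Most points lie below the dashed line, and the 4 in orange, whose quotient of the 2 ratios has an interval above 1, reach from HLA-E -0.1 kb (1.42) to NLRC5 -3.8 kb (3.54).

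The rest of the pathway was read from 15 genes: the immunoproteasome and its activator (PSMB8, PSMB9, PSMB10, PSME1, PSME2), the trimming enzymes ERAP1 and ERAP2, the loading factors CALR, CANX, PDIA3 and TAPBPL, and the regulators RFX5, RFXANK, RFXAP and IRF1. All 15 had a promoter region in all 4 lists. Those of PSMB8 and PSMB9 are also member regions, upstream of TAP2 and over the TAP1 promoter. The counts and medians of this list include them, so they are not separate from those of the members. With IFN-γ, 2 were higher by 1.5-fold and 1 was lower in WT, and 0 were higher and 0 lower in the knockout. Over all regions 13.1% were higher and 12.3% lower in WT, and 7.18% and 12.7% in the knockout, so the share higher in WT was that of the background. The median ratios were 1.08 in WT, against 0.953 for all regions, and 0.933 in the knockout, against 0.909.

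TAPBPL, a peptide editor related to tapasin, held 18 tags in WT and 41 with IFN-γ, and 21 and 18 in the knockout, a ratio with IFN-γ of 2.07 in WT and 0.866 in the knockout. ERAP2, an aminopeptidase that trims peptides, held 31 and 65 tags in WT and 29 and 33 in the knockout, with ratios of 1.91 and 1.15. At both promoters WT-IFN-γ stood above the other 3 libraries. Between treated knockout and treated WT these 2 of the 15 genes were lower by 1.5-fold and 0 were higher. The shares of all regions were 17.5% and 15.2%. The ratios were 0.566 (0.306 to 1.01) for TAPBPL and 0.654 (0.417 to 1.01) for ERAP2, and both intervals include 1. Both comparisons use the WT-IFN-γ library, so they are not independent of each other. PDIA3, a disulfide isomerase of the loading complex, went the other way in WT, with 59 tags and 42 with IFN-γ, a ratio of 0.648, and 39 and 36 in the knockout. The regulator IRF1 had a WT ratio of 1.40.

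Motifs were searched within 100 bp of the strongest summit of each region, on both strands. The IRF motif GAAANNGAA was found in 7 of 23 member regions (30.4%), against 8.02% of all regions. The 7 were the promoters of B2M, TAP1, TAP2, TAPBP, NLRC5 and HLA-F and the HLA-F region at 14806 bp. CCAAT was found in 10, against 24.1%, TGACG in 7, against 11.5%, and the NF-κB motif GGGNNTTCC in 2, B2M and TAPBP, against 3.78%. The interferon-γ activated site TTCNNNGAA was found in 0, against 6.57%, and the ETS motif CCGGAAG in 1, NLRC5 at 71947 bp, against 2.92%. The member regions, 8 of which are promoters of members, had a median GC content of 56.2% against 49.8% for all regions. The NLRC5 region at -3765 bp held CCAAT and no match to the other 5.

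In the 250 bases before the RefSeq start, 5 of the 7 members held GAAANNGAA, against 6.88% of 35116 promoters, and the exceptions were the near-identical HLA-B and HLA-C. The same number, 5, held CCAAT (32.0% of all promoters), 4 held TGACG (21.2%), 2 held GGGNNTTCC (5.78%), 0 held TTCNNNGAA (6.57%) and 0 held CCGGAAG (8.52%). In TAP2 the IRF motif lay at -58 bp, and in TAPBP it lay at -20 and -14 bp in overlapping matches, beside an NF-κB motif at -55 bp. These are matches of letters and do not show that a factor was bound. A pattern of fixed spacing also misses near matches. The HLA-B and HLA-C stretches hold TTTCACTTC where HLA-F has its IRF match, and it is not counted.

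The NLRC5 promoter had the largest WT ratio with IFN-γ among member promoters in all 4 lists. Of 11849 protein-coding genes with a promoter region in every list, those whose log2 levels over the 4 libraries, centred on their mean, came nearest to it were ZNF236 (Euclidean distance 0.0913), PKIB (0.0940), CDIN1 (0.0971), ZNF468 (0.105) and CKAP4 (0.110), against a median distance of 0.704. With 4 libraries behind each pattern, the distances describe these libraries alone.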

How the data were processed

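ATAC-seq peak lists of HK1 cells were used, 1 for each of 4 groups. Per the study's methods and the submitters' processing notes, the authors trimmed with Trimmomatic, used Bowtie2 2.3.4.1 for alignment to GRCh38, discarded duplicates and poorly mapped reads, and ran MACS2 2.1.2 for peaks. The methods name a reproducibility filter (IDR), and whether a list pools replicates or comes from before that filter is not given in the sources used here. The authors deposited for each peak a score, a fold enrichment over local background (a ratio) and −log10 p and −log10 q values.

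A whole-number summit pileup was recovered from fold and −log10 p, to a tolerance of 0.01 on the latter, for 100% of the peaks in each list. It was divided by tag density, the lowest background over the shortest peak width. Peaks overlapping by 1 bp were merged, and a ratio of levels of 1.5 was the limit for higher or lower. Where a list held no peak, the smallest pileup that would have passed its p-value limit was used as a bound, without regard to peak width. Intervals were exact Poisson, conditional binomial for ratios, and normal on the log scale for quotients of ratios. Transposase ends may have been shifted or not, which moves a summit by a few bases. Genes and TSSs were from GENCODE v44. The members and lists were chosen with earlier results of these data known. All 9 members were described, and from the pathway list those past 1.5-fold with IFN-γ in WT (IRF1 was added after its values were seen). Of the pathway list and of the marker lists, 1 gene each is not reported here. The steps were tested on simulated data. Alternatives were stricter −log10 q, other windows, folds, scalings and overlaps, background subtraction, the summit nearest the TSS and, added after the data were seen, leaving out the HLA genes or regions below 30 tags. Software was Python 3.11.15, Biopython 1.88, scipy 1.17.1, numpy 2.4.6, matplotlib 3.10.9 and pandas 2.3.3.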

Additional observations from a re-analysis of the deposited data

Results flagged for a closer look

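The region at -3765 bp of NLRC5 had a ratio with IFN-γ of 2.02 in WT and 0.570 in the knockout, so the 2 genotypes moved in opposite directions, and the quotient of the ratios was 3.54. The difference was not tested, since each group had 1 library.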

How the results depend on the processing

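No promoter ratio past 1.5-fold changed direction under any alternative. The 104 recomputed ratios of single promoters stayed within the counting interval of the reported ratio. The 12 recomputed bounds for HLA-C and HLA-F, which have no such interval, stayed within 1.5 times the reported bound. The summit nearest the TSS gave the same ratios as before, and rescaling only divides a ratio by a median over many regions. Of these alternatives, background subtraction alone recomputes the level of a promoter. With a window of 3 kb upstream or the gene body alone, WT and sgFLI1 had 12 member peaks each, and WT-IFN-γ and sgFLI1-IFN-γ had 15 each. At a fold of 2, 0 of 22 regions were lower with IFN-γ in WT, against 3.44% of all regions. With IFN-γ in the knockout 0 of 21 were higher and 0 lower, against 2.12% and 2.77%. In the untreated knockout 0 of 20 were lower than in WT, against 5.03%. In the treated knockout 3 of 22 were lower than in treated WT, against 6.61%. The count lower with IFN-γ in WT was also 0 of 22 under both rescalings (to the median of shared regions or of the chromosome), against 9.74% and 9.76% of all regions. It was 0 of 21 with a −log10 q minimum of 5 and with at least 30 tags, against 5.99% and 5.68%. With IFN-γ in the knockout, 1 of 19 regions was higher with the −log10 q minimum of 5, against 2.20% of all regions. The count was 1 of 15 without the HLA genes, against 7.18%, and 1 of 16 with at least 30 tags, against 1.83%. After background subtraction 2 of 21 were lower, against 17.6%. Between treated knockout and treated WT, 2 of 22 regions were higher after scaling to the chromosome, against 15.4% of all regions. After background subtraction 2 of 22 were higher too, against 18.8%. Without the HLA genes, 2 of 15 regions were higher with IFN-γ in WT, against 13.1% of all regions. In the untreated knockout 0 of 14 were higher than in WT, against 18.7%. In the treated knockout 4 of 15 were lower than in treated WT, against 17.5%. The cause of these shifts was not tested. No paired analysis was possible because each group had 1 library. The smallest summit that a list would have held at the unlisted member regions was 7 to 15 tags, depending on library and local background, so weaker sites could be missed, and no replicate spread was available.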
